A study of Mus musculus with 6 samples.

Results

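Messenger RNA of 10 genes of the BCL2 family was compared between mouse embryonic fibroblasts, connective tissue cells grown from embryos, that overexpressed p27 from a lentivirus and their controls, at day 10. The genes were taken by symbol from a list of 4 protective members (Bcl2, Bcl2l1, Bcl2l2 and Mcl1) and 6 killing members (the BH3-only genes Bcl2l11, Bid, Bad and Bmf, and the effector genes Bak1 and Bok). All 10 were found among the 24062 symbols of the count table, and all 10 were among the 13990 genes that passed the filter on low counts. The comparison was between 3 libraries labelled p27OE and 3 labelled EV control, all from C57BL/6 embryo cells at day 10. The protein p27, encoded by Cdkn1b, inhibits cyclin-dependent kinases. The labels carry 2 descriptions of the p27OE cells, senescent in the titles and protocol and non-senescent in the design text. They do not spell out EV, name the promoter that drove p27 or state whether replicates were separate cultures. P-values therefore measure only the spread between these samples, which may be technical in part.

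The BCL2 family controls the permeability of the outer mitochondrial membrane. BAK1, and BOK in a less understood way, can open that membrane and release cytochrome c, which activates caspases. BCL2, BCL2L1 (BCL-xL), BCL2L2 (BCL-W) and MCL1 bind and restrain the killing proteins, while BH3-only proteins such as BCL2L11 (BIM), BID, BAD and BMF carry stress signals by binding the protective proteins or by activating the effectors. Senescent fibroblasts are known for resisting apoptosis, and BCL2L1 and BCL2L2 are known targets of drugs used to remove such cells. Much of the control of this family is on protein stability, cleavage and phosphorylation, which messenger RNA counts do not measure.

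No member changed past the threshold of an adjusted p under 0.05 in the comparison of p27OE with EV control by edgeR's quasi-likelihood test, where 2.61% of all tested genes did, 1.77% as higher and 0.843% as lower. The member with the smallest p was the protective gene Bcl2l2, 1.38-fold higher in p27OE libraries (95% interval 1.17 to 1.62; edgeR adjusted p = 0.0607), followed by the BH3-only gene Bid, 1.31-fold higher (95% interval 1.11 to 1.55; edgeR adjusted p = 0.0798). At an unadjusted p under 0.05 the count was 3 of 10 members, Bcl2l2, Bid and Bad, against 26.0% of all tested genes. DESeq2 called 2 members, Bcl2l2 and Bid, where it called 16.6% of all genes, and limma-voom called 0 members, where it called 2.99% of all genes.

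Cdkn1b, the targeted gene, was at 167, 232 and 337 CPM in p27OE libraries and at 43.9, 31.5 and 32.3 CPM in EV control libraries, where CPM is the gene's count scaled to library depth with TMM factors. The log2 fold change was 2.77 ± 0.29 (SE), with an adjusted p of 0.028 by edgeR, and the call was lost when any 1 library other than EV control 1 was left out (adjusted p from 0.0563 to 0.189). Library totals ran from 43621464 to 48014367 counts in p27OE and from 39183624 to 61219345 counts in EV control. The libraries also differed in sex chromosome transcripts: the summed CPM of 4 Y-linked genes was 1.95, 57.15 and 137 in p27OE 1, 2 and 3 and 0.13, 126 and 124 in EV control 1, 2 and 3. All 10 fibroblast markers were detected in every library, and Col1a1, a collagen I chain, was at 12835 CPM or more, but the proteoglycan genes Dcn and Lum were low in several libraries. Dcn was at 92.7, 25.2 and 8.43 CPM in p27OE 1, 2 and 3 and at 76.1, 11.2 and 8.27 CPM in EV control 1, 2 and 3. Lum was at 85.4, 24.8 and 4.18 CPM in p27OE 1, 2 and 3 and at 77.6, 10.2 and 8.71 CPM in EV control 1, 2 and 3, so that both were highest in the libraries numbered 1. None of 7 lymphocyte markers passed the filter, with Cd3e, Cd3g, Cd8a and Ms4a1 at 0 counts. The endothelial markers, 3 of 6 tested, summed to 4.11 to 7.60 CPM in p27OE and 3.09 to 3.67 CPM in EV control. Of these, Tek was at 6.49, 3.36 and 1.51 CPM in p27OE and at 2.38, 0.992 and 1.03 CPM in EV control. Kdr and Emcn had log2 fold changes of 0.01 and −0.13, and none of the 3 passed. The epithelial markers, also 3 of 6 tested, summed to 3.65 to 8.10 CPM in p27OE and 1.85 to 4.43 CPM in EV control. The 9 tested of 10 macrophage markers summed to 16.9, 25.2 and 31.9 CPM in p27OE 1, 2 and 3 and to 68.4, 20.2 and 16.8 CPM in EV control 1, 2 and 3. Within these sums Lyz2 alone was at 9.28, 16.3 and 21.9 CPM in p27OE and at 34.3, 9.36 and 7.33 CPM in EV control. All 9 had a log2 fold change below 0, and none passed.

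The promoters of Bcl2l2 and Bid are shown because these were the members with the smallest p. Each sequence is the part of the 250 bases before the RefSeq start (GRCm38.p6) that lies outside any GENCODE M21 exon, written in the direction of transcription, with matches to the GC box (GGGCGG on either strand), a binding motif of SP1-type factors, in capitals. Bcl2l2 lies on chromosome 14 at 54883377 to 54888234 on the plus strand, and the stretch shown is chr14:54883175-54883376. Bid lies on chromosome 6 at 120891930 to 120916853 on the minus strand, and the stretch shown is chr6:120916854-120917074.
Bcl2l2: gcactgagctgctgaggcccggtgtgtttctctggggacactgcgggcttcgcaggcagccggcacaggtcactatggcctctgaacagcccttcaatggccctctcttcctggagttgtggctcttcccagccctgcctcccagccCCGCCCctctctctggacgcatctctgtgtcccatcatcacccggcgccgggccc
Bid: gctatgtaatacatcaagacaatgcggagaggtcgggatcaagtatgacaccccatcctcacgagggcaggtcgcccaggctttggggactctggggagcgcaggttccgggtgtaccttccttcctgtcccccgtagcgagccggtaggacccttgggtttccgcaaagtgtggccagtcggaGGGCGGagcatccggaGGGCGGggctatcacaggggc
The Bcl2l2 stretch held 1 GC box and the Bid stretch 2. The GC box was in 32.7% of the 32851 promoter windows of 250 bases in the mouse RefSeq set. Among the other members it was also in windows of Bcl2, Mcl1, Bcl2l11, Bad and Bok, so it was not particular to the genes shown. The other motifs searched on both strands were CCAAT, the FOXO motif GTAAACA and the E2F motif TTTNNCGC, found in 33.8%, 3.17% and 4.28% of all windows, and the 2 stretches held none of them. The Bcl2l11 gene, a textbook FOXO3 target, had a GTAAACA match in 1 of its 2 windows, and 1 of the 3 windows of Bcl2l1 had a TTTNNCGC match. CCAAT was in windows of Bcl2l11, Bad and Bmf.

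**Figure D1:**
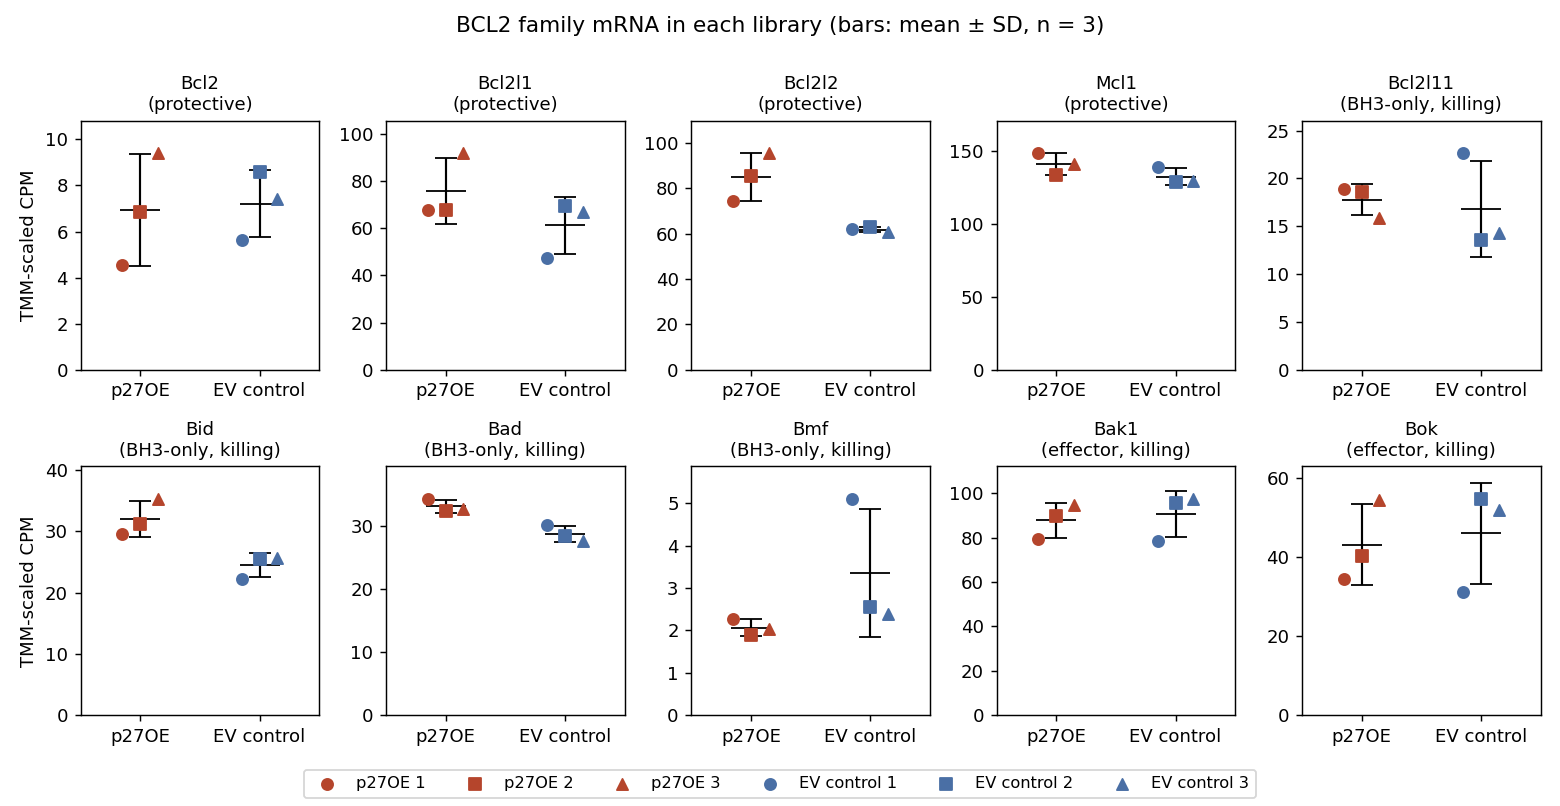
TMM-scaled CPM of the 10 members in each library, with p27OE left of EV control, 1 symbol per library number, and bars for the mean ± SD of 3 libraries. The groups are separate for Bcl2l2, Bid, Bad and Bmf and overlap for the other 6 members.

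Among the protective genes, Bcl2l2 was at 74.3, 85.3 and 95.3 CPM in p27OE libraries and at 61.8, 62.7 and 60.5 CPM in EV control libraries. Every p27OE library lay above every EV control library, and the 3 EV control libraries lay close together. The mean was 84.98 ± 10.5 CPM in p27OE and 61.7 ± 1.12 CPM in EV control (SD, n = 3 each), a log2 fold change of 0.46 ± 0.10 (SE). In these bulk samples, fewer cells of a type and less RNA per cell cannot be told apart. The Bcl2l2 gene shares 594 bases of exon with Gm20521, a gene model on the same strand with no row in the count table, so reads of that model cannot be told apart from those of Bcl2l2. By rule, the genes with the pattern most like Bcl2l2 over the 6 libraries, measured by Pearson's r of log2 CPM, were BC022687, Man2b1, Tnip1, Ranbp10 and Zfp618, with r from 0.994 to 0.996. They were picked as the highest r over all tested genes from only 6 libraries, so these values describe the libraries and carry no test.

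Bcl2l1, which encodes the protective protein BCL-xL and, by splicing, a short form with killing activity that gene-level counts do not separate, was at 67.6, 67.5 and 91.7 CPM in p27OE libraries. In EV control libraries it was at 47.3, 69.5 and 66.7 CPM. EV control 1 was low and p27OE 3 high, and the groups overlapped. The log2 fold change was 0.31 ± 0.19 (± SE, adjusted p = 0.357 by edgeR), with a 95% interval of −0.15 to 0.76, and it was 0.13 without EV control 1 and 0.14 without p27OE 3.

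Mcl1, a short-lived protective protein, had the highest CPM of the 10 genes, with 149, 134 and 142 CPM in p27OE libraries and 140, 129 and 129 CPM in EV control libraries. Its values were close together in all 6 libraries and the groups overlapped. The log2 fold change was 0.09 ± 0.08 (± SE, adjusted p = 0.492 by edgeR), and its 95% interval, a fold of 0.94 to 1.21, was the narrowest that included 1 among the members. The log2 fold change was 0.036 without p27OE 1 and ran from there to 0.11 over the 6 fits with 1 library left out. The founding member, Bcl2, was low, at 4.54, 6.83 and 9.40 CPM in p27OE libraries and 5.65, 8.57 and 7.42 CPM in EV control libraries. The lowest library of both groups was the one numbered 1. Its log2 fold change was −0.06 ± 0.29 (± SE, adjusted p = 0.917 by edgeR), with an interval from −0.76 to 0.64 or 0.591 to 1.55 in fold, so that changes within it were not detectable at this spread. Bcl2 shares 558 exon bases with the antisense gene D630008O14Rik, which was not analysed here.

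Among the BH3-only genes, Bid, whose protein is cut by caspase-8 and so links death receptors to mitochondria, was at 29.6, 31.1 and 35.3 CPM in p27OE libraries. It was at 22.2, 25.4 and 25.7 CPM in EV control libraries, so the groups did not overlap. The mean was 32.03 ± 2.96 CPM in p27OE and 24.5 ± 1.96 CPM in EV control (SD, n = 3 each), a log2 fold change of 0.39 ± 0.10 (SE). Bid shares 628 exon bases, 17.7% of its own, with Bcl2l13 on the opposite strand, and the library kit named in the labels does not mark strand. Bcl2l13 itself was at 42.2, 45.9 and 47.5 CPM in p27OE libraries and 46.6, 51.7 and 51.1 CPM in EV control libraries, a log2 fold change of −0.14 ± 0.08 (SE), opposite in sign to Bid.

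Bad, whose protein is held inactive by phosphorylation in cells receiving survival signals, was at 34.4, 32.4 and 32.8 CPM in p27OE libraries and 30.2, 28.5 and 27.6 CPM in EV control libraries. The groups were separate by a small margin, and the log2 fold change was 0.21 ± 0.07 (± SE, adjusted p = 0.136 by edgeR). Bad shares 524 exon bases, 20.5% of its own, with Gpr137 on the opposite strand. Gpr137 was at 31.1 ± 0.936 CPM in p27OE and 25.9 ± 2.14 CPM in EV control (SD, n = 3 each), a log2 fold change of 0.27 ± 0.08 (SE), of the same sign as Bad. The part of shared reads in the Bad value was not tested.

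Bmf, a BH3-only protein tied to dynein light chain and released on loss of attachment, was the one BH3-only gene with a fold change below 0. It had 2.27, 1.89 and 2.04 CPM in p27OE libraries, against 5.10, 2.56 and 2.39 CPM in EV control libraries. All p27OE libraries were lower, but most of the distance came from EV control 1. The log2 fold change was −0.69 ± 0.33 (± SE, adjusted p = 0.247 by edgeR), and −0.28 without EV control 1. The counts behind it were 85 to 105 per p27OE library and 109 to 204 per EV control library. EV control 1 was also the library in which the macrophage markers summed to 68.4 CPM, and their part in the Bmf value was not tested.

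Bcl2l11 encodes BIM, a BH3-only protein with broad binding to protective members. It was at 18.8, 18.5 and 15.9 CPM in p27OE libraries and 22.6, 13.5 and 14.3 CPM in EV control libraries. The p27OE values lay inside the range of the EV control values. The log2 fold change was 0.08 ± 0.21 (± SE, adjusted p = 0.847 by edgeR), 0.34 without EV control 1, and −0.06 and −0.02 without EV control 2 and EV control 3.

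The effector genes overlapped fully between the groups. Bak1 was at 79.2, 89.7 and 94.7 CPM in p27OE libraries and 78.5, 95.6 and 97.4 CPM in EV control libraries, with a log2 fold change of −0.04 ± 0.11 (± SE, adjusted p = 0.842 by edgeR) and a 95% interval of 0.805 to 1.17 in fold. Bok was at 34.6, 40.2 and 54.4 CPM in p27OE libraries and 31.3, 54.7 and 51.97 CPM in EV control libraries, with a log2 fold change of −0.10 ± 0.25 (± SE, adjusted p = 0.847 by edgeR). Both were lowest in the libraries numbered 1 of each group. Bak1 shares 437 and 177 exon bases with 2 annotated entries of Ggnbp1 on the opposite strand, a gene with 354 counts over all libraries. Over the 6 libraries the log2 CPM of Bak1 and Bok correlated with a Pearson's r of 0.961, and that of Bok and Bcl2l11 with −0.94, values that describe these libraries and share their scaling and their sex chromosome difference.

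Without overlap between the groups were 4 of 10 members, 3 higher (Bcl2l2, Bid and Bad) and 1 lower (Bmf) in p27OE, against 33.3% of all tested genes, 16.8% higher and 16.5% lower. The median log2 fold change was 0.20 over the 4 protective members and 0.02 over the 6 killing members, beside 0.01 over all tested genes. Above 0 were 3 of 4 protective and 3 of 6 killing members, the 3 killing ones all BH3-only.

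**Figure D2:**
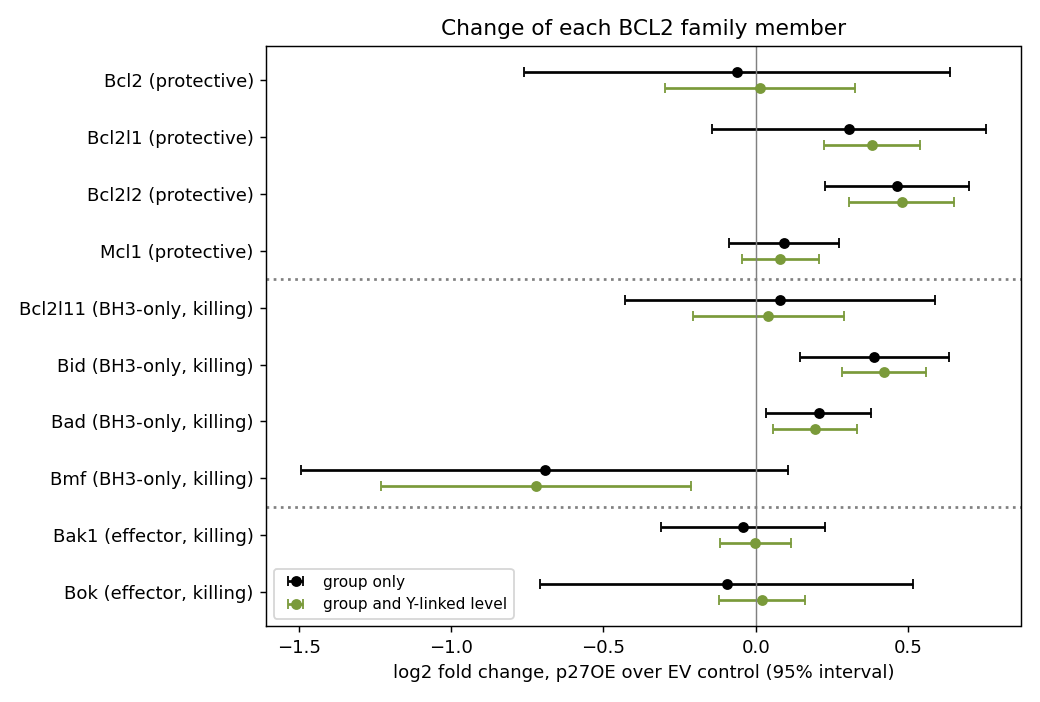
Log2 fold change of each member, p27OE over EV control, with its 95% interval, from the model with the group alone (black) and from the model with the Y-linked level as a further term (green). The black intervals of Bcl2l2, Bid and Bad lie above 0, and the green intervals of Bcl2l1, Bcl2l2, Bid and Bad lie above 0 and that of Bmf below it.

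Because the Y-linked level differed within the groups, the comparison was also made with that level as a term in the model. In each group the Y-linked level was lowest in the library numbered 1, where Dcn and Lum were highest. The term therefore cannot be told apart from other differences of those libraries. The SE of the log2 fold change of Bcl2l1 was 0.07 in that model, against 0.19 without the term. There 34.0% of all tested genes were called, 18.0% higher and 16.0% lower, and 5 of 10 members were called. The protective genes Bcl2l2 and Bcl2l1 rose, by 0.48 ± 0.07 and 0.38 ± 0.07 on the log2 scale (± SE, adjusted p = 0.00408 and 0.00653 by edgeR). The BH3-only genes Bid and Bad rose, by 0.42 ± 0.06 and 0.19 ± 0.06 (± SE, adjusted p = 0.00299 and 0.0396 by edgeR), and Bmf fell by 0.72 ± 0.22 (± SE, adjusted p = 0.0384 by edgeR). Mcl1, Bcl2, Bcl2l11, Bak1 and Bok did not pass, and the intervals of Bak1 and Bok on the log2 scale narrowed to −0.12 to 0.12 and −0.12 to 0.16.

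Libraries of like Y-linked level were also set against each other. At a low level, in p27OE 1 less EV control 1, the log2 difference was 0.27 for Bcl2l2, 0.52 for Bcl2l1, 0.41 for Bid, 0.19 for Bad and −1.15 for Bmf. At a high level, in p27OE 3 less the mean of EV control 2 and EV control 3, it was 0.63 for Bcl2l2, 0.43 for Bcl2l1, 0.47 for Bid, 0.22 for Bad and −0.27 for Bmf. Bid and Bad differed by similar amounts in both, Bmf more in the first and Bcl2l2 more in the second, each from 2 or 3 libraries and with no test. Bcl2 and Bcl2l11 had opposite signs in them, at −0.31 and −0.26 in the low-level libraries and 0.24 and 0.19 in the high-level ones.

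To set the genes beside each other, CPM was divided by the length of all annotated exons of each gene. On this scale of CPM per kilobase, the order in EV control libraries was Mcl1 at 38.8 ± 1.75, Bak1 at 37.6 ± 4.33, Bok at 24.99 ± 6.96, Bcl2l2 at 13.8 ± 0.251, Bcl2l1 at 13.3 ± 2.64, Bad at 11.2 ± 0.505, Bid at 6.89 ± 0.551, Bcl2l11 at 2.10 ± 0.627, Bcl2 at 0.788 ± 0.16 and Bmf at 0.638 ± 0.289 (SD, n = 3 each). The order of the means was the same in p27OE libraries. Among neighbours in the EV control order, the libraries of Mcl1 and Bak1 overlapped, as did those of Bcl2l2 and Bcl2l1, Bcl2l1 and Bad, and Bcl2 and Bmf. With the longest annotated transcript as the length, Bcl2l2 moved from place 4 to place 6 in EV control libraries, behind Bcl2l1 and Bad. In p27OE libraries the means on that length were 29.4 for Bcl2l1, 29.3 for Bok, 22.3 for Bcl2l2 and 21.6 for Bad, so the order of the middle members depended on the length used. Mcl1 was thus the highest of the protective members, and Bak1 and Bok the highest of the killing members.

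The summed level of the 4 protective members was 75.4, 73.8 and 83.8 CPM per kilobase in p27OE libraries and 65.6, 67.9 and 66.8 CPM per kilobase in EV control libraries, and these groups did not overlap. The summed level of the 6 killing members was 76.2, 83.2 and 94.01 CPM per kilobase in p27OE and 71.5, 89.9 and 89.0 CPM per kilobase in EV control, and these overlapped. This sum leaves out the killing genes Bax, Bbc3 and Pmaip1, which are not among the members. Bax, not divided by length, was at 180, 191 and 192 CPM in p27OE and 138, 169 and 175 CPM in EV control. The sum and the ratio therefore describe the listed members and not the whole family. The ratio of protective to killing level within a library, which does not depend on the scaling, was 0.989, 0.886 and 0.891 in p27OE libraries and 0.919, 0.756 and 0.75 in EV control libraries. EV control 1 lay within the p27OE range, and the means were 0.922 ± 0.0579 in p27OE and 0.808 ± 0.0958 in EV control (SD, n = 3 each). In the low-level libraries the ratio was 0.989 in p27OE 1 against 0.919 in EV control 1, and in the high-level ones 0.891 in p27OE 3 against 0.756 and 0.75 in EV control 2 and 3.

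With each gene given equal weight, the mean log2 CPM of the protective members less that of the killing members was 0.95, 1.09 and 1.28 in p27OE libraries and 0.70, 1.05 and 0.99 in EV control libraries. The groups overlapped, and the difference of their means, 0.19, was close to the SD within the groups, 0.163 in p27OE and 0.187 in EV control (n = 3 each). It was 0.09 without EV control 1 and 0.11 without p27OE 3. Against the effector Bak1 alone, the level of Bcl2l1 per kilobase was 0.448, 0.395 and 0.509 of that of Bak1 in p27OE libraries and 0.316, 0.382 and 0.359 of it in EV control libraries. That of Bcl2l2 was 0.507, 0.513 and 0.543 of Bak1 in p27OE and 0.425, 0.354 and 0.335 of it in EV control. Neither ratio overlapped between the groups, while the ratio of Mcl1 to Bak1 did, at 1.32, 1.05 and 1.05 in p27OE and 1.25, 0.951 and 0.935 in EV control. These ratios were chosen with the members' values known and carry no test.

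**Figure D3:**
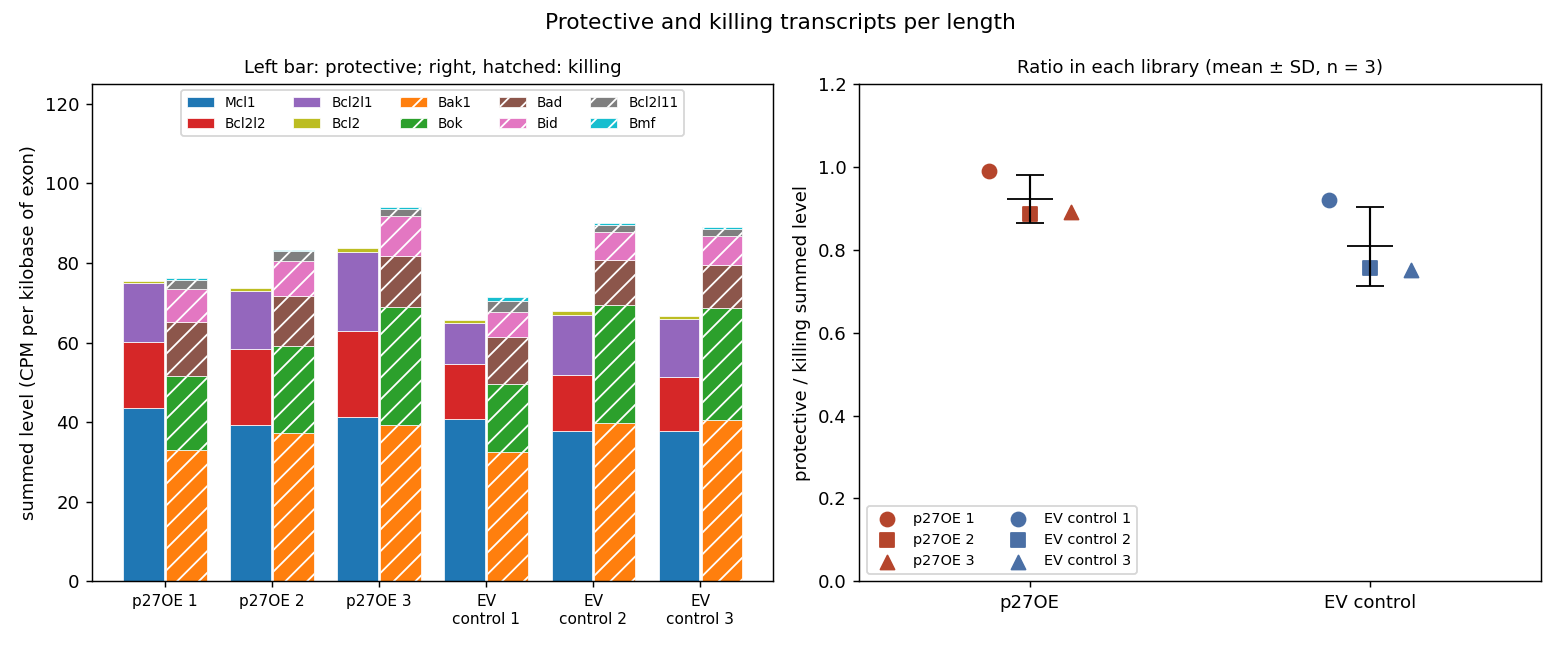
Left, summed level of the protective members (left bar of each pair) and of the killing members (right, hatched bar) in CPM per kilobase of exon, for each library. Bax is not among the members and is in neither sum. Right, the ratio of the 2 sums in each library with the mean ± SD of 3 libraries; it ran from 0.886 to 0.989 in p27OE and from 0.75 to 0.919 in EV control.

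Related genes outside the list were described in 6 groups of 70 genes in all, of which 59 were tested, and 2 of those passed, both lower in p27OE libraries, beside 2.61% of all genes. At an unadjusted p under 0.05 the count was 17 of 59, beside 26.0% of all genes. DESeq2 called 11, beside 16.6% of all genes, and limma-voom 3, beside 2.99% of all genes. The same shares of all genes stand beside the counts of each group below. The median log2 fold change over the 59 was −0.03.

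In the group of other BCL2 family genes, 7 of 15 were tested and 4 were below 0, of which 1 passed, and the median log2 fold change was −0.07. The gene that passed was Bnip3, which encodes a BH3-like mitophagy receptor induced by low oxygen, at 87.2, 103 and 99.6 CPM in p27OE libraries against 200.4, 192 and 149.9 CPM in EV control libraries. The groups were far apart, with a log2 fold change of −0.91 ± 0.13 (± SE, adjusted p = 0.0348 by edgeR). Bax, the second main effector, had 180, 191 and 192 CPM in p27OE and 138, 169 and 175 CPM in EV control, without overlap, and a log2 fold change of 0.23 ± 0.11 (± SE, adjusted p = 0.237 by edgeR). The 8 untested genes, among them Hrk, Bik and the 3 Bcl2a1 copies, had from 0 to 37 counts over all libraries together.

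Among 15 genes of the apoptosome, mitochondrial release and the caspases, none passed, 4 had an unadjusted p under 0.05, DESeq2 called 2 and limma-voom 0, and the median was −0.18. Casp2 and the mitochondrial protease gene Htra2 had log2 fold changes of −0.59 ± 0.16 and −0.29 ± 0.09 (± SE, adjusted p = 0.0858 and 0.113 by edgeR). Of 5 tested caspase inhibitor genes of the IAP family, none passed, 2 had an unadjusted p under 0.05, DESeq2 called 2 and limma-voom 0, and the median was −0.20. Birc5, which encodes survivin and is made mainly by dividing cells, was at −0.98 ± 0.26, Birc3 at −0.30 ± 0.09 and Birc6 at 0.23 ± 0.14 (log2 fold change ± SE).

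Of 8 tested death receptor genes, none passed, 4 had an unadjusted p under 0.05, DESeq2 called 2 and limma-voom 0, with a median of 0.15. The receptor gene Fas was at 14.3, 11.1 and 10.7 CPM in p27OE libraries and 8.33, 5.62 and 6.37 CPM in EV control libraries, without overlap, and had a log2 fold change of 0.83 ± 0.19 (± SE, adjusted p = 0.0681 by edgeR). The adaptor genes Fadd and Tradd were at −0.30 ± 0.09 and 0.22 ± 0.09 (SE). Of 15 genes for partners and turnover of BCL2 proteins, none passed, 4 had an unadjusted p under 0.05, DESeq2 called 2 and limma-voom 1, with a median of 0.04. The outer membrane channel gene Vdac3 was at −0.37 ± 0.07 (± SE, adjusted p = 0.0521 by edgeR), and the ubiquitin ligase genes Btrc and Fbxw7, both known to act on MCL1, at 0.30 ± 0.07 and 0.22 ± 0.08 (SE).

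Of 9 tested transcription factor genes known to act on the family, 6 were below 0, of which 1 passed, with a median of −0.03. The gene that passed was Nfil3, which encodes a repressor with survival activity in blood cells, at 34.5, 39.5 and 32.5 CPM in p27OE and 60.8, 54.5 and 54.8 CPM in EV control, a log2 fold change of −0.68 ± 0.10 (± SE, adjusted p = 0.0348 by edgeR). Trp53 and Foxo1 were at −0.27 ± 0.08 and 0.29 ± 0.13 (SE) without passing. The calls of Bnip3 and Nfil3 were lost when any 1 library other than EV control 1 was left out, with edgeR adjusted p up to 0.183 and 0.189, and their log2 fold changes ran from −1.03 to −0.84 and from −0.77 to −0.62 over all 6 fits with 1 library left out.

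**Figure D4:**
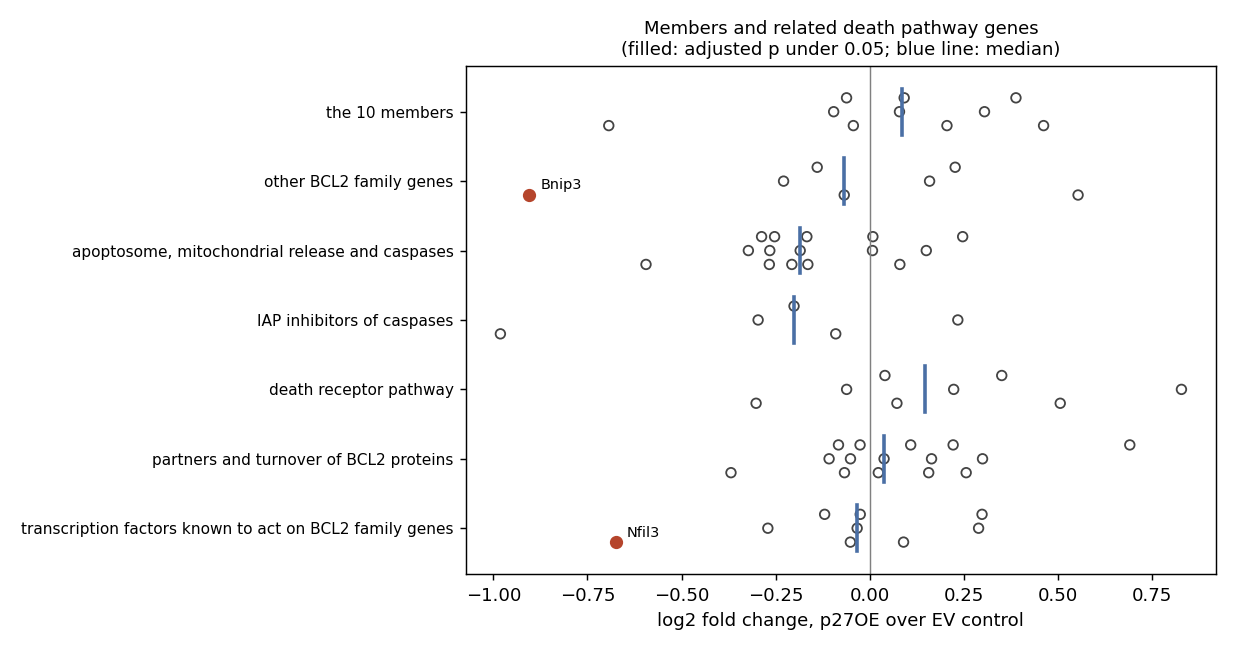
Log2 fold change, p27OE over EV control, of the 10 members and of the tested genes in 6 related groups, 1 point per gene, with the median of each group as a blue line. Filled points are the 2 genes that passed, Bnip3 at −0.91 and Nfil3 at −0.68, and no member is filled.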

How the data were processed

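RNA was sequenced from 6 samples of mouse embryonic fibroblasts. Per the labels' protocols, RNA was purified on columns and turned into libraries by a TruSeq RNA v2 kit, which does not mark strand. Per the submitters' processing notes, the tools were featureCounts 1.4.6, Subread, Bowtie2 2.2.6 and TopHat2 2.0.14, with mm10. No annotation, strand setting or filter is given in the sources used here. Values as deposited are whole-number counts per gene symbol, with 0 blank or total rows, matched to samples by title.

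The members, gene lists and alternatives were chosen with earlier results of these data known. Genes were filtered with filterByExpr, scaled by TMM and tested with edgeR 4.0.16 (robust quasi-likelihood fit, two-sided, R 4.3.3), group as the only term, with Benjamini-Hochberg adjustment over 13990 genes and a threshold of 0.05. Intervals are 95% intervals of the same fit. Log2 CPM used a prior count of 2. The fit was tested on simulated data. Alternatives were RLE and total-count scaling, 2 other filters, DESeq2 1.42.0, limma-voom (limma 3.58.1), the replicate number as a block, the Y-linked level (CPM of Uty, Kdm5d, Eif2s3y and Ddx3y added up and divided by the maximum over libraries) as a term, both libraries numbered 1 left out, and each library left out. The longest transcript as gene length was added after the data were seen. Exon lengths, overlaps and coordinates came from GENCODE M21 (GRCm38, the assembly of mm10), and promoters from RefSeq (GRCm38.p6), in which all 10 members matched by symbol. Named beyond the members were Cdkn1b, the 3 genes of smallest p and any called gene of each list, genes sharing exons with a member, and the 5 genes most like the member of smallest p. Values of 1 gene this rule names and of 1 marker are not reported here. For 2 libraries of 1 group the chi-square per gene was at least 6.49, so none repeated another within sampling noise. This mean over genes, on unscaled counts, does not show whether 2 libraries came from separate cultures. The value of 6.49 was of EV control 2 and EV control 3, which were much more alike than the other pairs, at 55.5 to 188.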

Additional observations from a re-analysis of the deposited data

How the results depend on the processing

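Of 150 member values over 15 alternatives, 129 kept their direction and their side of the threshold, 11 gained a call and 10 changed sign without a call. The 365 genes called over all genes became 2321 with DESeq2, 2410 with the replicate block and 4761 with the Y-linked level in the model. They became 2334 with both libraries numbered 1 left out and 1827 with EV control 1 left out. With any other 1 library left out, only 1 or 2 genes were called. The cause was not tested. The 0 members called became 1 with total counts (Bcl2l2), 2 with DESeq2 and 2 with the replicate block (Bcl2l2 and Bid in both). They became 5 with the Y-linked level in the model and 1 (Bcl2l2) with both libraries numbered 1 left out. The count stayed at 0 with each library left out. Except without EV control 1, those fits called almost no gene, so a count of 0 there says little about the members. The 129 values above include values from these fits. Bcl2l2 had adjusted p from 0.00283 to 0.236 over the alternatives, Bid from 0.00299 to 0.245, Bcl2l1 from 0.00653 to 0.668, Bad from 0.0396 to 0.392 and Bmf from 0.0384 to 0.46. Sign changes were in Bcl2 (0.013 with the Y-linked term) and Bok (0.021 with that term), and with a library left out, where log2 fold changes ran from −0.35 to 0.15 for Bcl2, −0.057 to 0.34 for Bcl2l11, −0.15 to 0.012 for Bak1 and −0.33 to 0.048 for Bok. Deviations from the group means had r = 0.67, 0.04 and 0.50 between libraries sharing a number, and 0.56 between EV control 2 and p27OE 3, so replicate numbers were not treated as a pairing. The contrast of protective and killing members was 0.09 to 0.27 on the log2 scale over its alternatives, and the difference in the ratio 0.08 to 0.17; DESeq2 and limma-voom give no value for these. Bmf had the lowest counts of the members, 85 to 204 per library.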

Other observations

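Pmaip1, a p53-responsive BH3-only gene (NOXA) outside the list of members, had a larger SE than any member. It was at 21.5, 41.1 and 97.7 CPM in p27OE libraries and at 13.6, 48.5 and 46.8 CPM in EV control libraries, lowest in the library numbered 1 of each group, and its log2 fold change was 0.55 ± 0.66 (± SE, adjusted p = 0.643 by edgeR). With the term for Y-linked transcripts it was 0.78 ± 0.06 (± SE, adjusted p = 0.000531 by edgeR). That model called 34.0% of all tested genes, and the CPM of Pmaip1 overlapped between the groups. Bbc3 (PUMA) was highest in the library numbered 1 of each group, at 22.1, 18.8 and 13.9 CPM in p27OE and 22.4, 13.8 and 13.0 CPM in EV control. The death receptor gene Tnfrsf10b was at 101, 122 and 147 CPM in p27OE libraries and 66.0, 97.9 and 96.2 CPM in EV control libraries, without overlap, and Cflar, which encodes the caspase-8 inhibitor c-FLIP, at 67.2, 75.3 and 97.1 CPM in p27OE and 56.0, 64.9 and 66.8 CPM in EV control, also without overlap; neither passed by edgeR (adjusted p = 0.169 and 0.199). These genes were chosen after their values were seen. Of all tested genes, 33.3% did not overlap between the groups, 16.8% higher and 16.5% lower. In the death receptor group, 5 of 8 tested genes were higher without overlap and 1, Fadd, was lower. Tnfrsf1a and Faim overlapped, with log2 fold changes of −0.06 and 0.04.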
